A study of Mus musculus with 2 samples.

Results

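Of the 34745 genes in the deposited table for mouse gastrocnemius muscle, 71 carry a symbol that begins with Hist1h, Hist2h, Hist3h or Hist4h and were taken as the histone cluster genes. They bear 70 distinct symbols, because Hist2h2bb stands on 2 gene identifiers. By symbol, 56 of the 71 belong to Hist1 on chromosome 13, 11 to Hist2 on chromosome 3, 3 to Hist3 on chromosome 11 and 1 is Hist4h4. By type 6 are H1, 20 H2A, 20 H2B, 12 H3 and 13 H4 genes. Hist1h2al, a pseudogene counted here with Hist1 for its symbol, lies apart from the other Hist1 members, at chr13:51202688-51203065. GENCODE M21 classes 67 as protein coding, 3 as pseudogenes and 1 as a long intergenic RNA. Total RNA was sequenced from the gastrocnemius, a calf muscle, in 2 groups of 1 library each. TECRLscko mice lack TECRL, an enoyl-CoA reductase-like protein, in satellite cells, the muscle stem cells, through a Cre recombinase driven by Pax7, the transcription factor that marks those cells. TECRLflox/flox mice, whose label names the floxed allele and no Cre, served as the control. The labels do not give age, sex or the number of mice behind each library, and the RNA came from whole muscle, in which satellite cells are a minority.

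With 1 library in each group there is no replicate spread, so no difference below was tested between genotypes. Each ratio is TECRLscko over TECRLflox/flox CPM, the count scaled to library size with TMM factors, and its 95% interval covers counting error only. The TECRLscko library held 16946124 counts and the TECRLflox/flox library 19281017, so that 3 counts, the floor at which a count of 0 is drawn below, stood for 0.181 CPM in the TECRLscko and 0.152 CPM in the TECRLflox/flox library. Mitochondrial genes took 23.1% of TECRLscko counts and 17.0% of TECRLflox/flox counts. All 14 muscle fiber markers examined were detected, with 148049 CPM summed in TECRLscko and 162295 CPM in TECRLflox/flox muscle. Tecrl itself had 4 counts in the TECRLscko and 3 in the TECRLflox/flox library, too few to check the labels, and a loss confined to satellite cells need not show in whole muscle. Fewer cells of a type and less RNA per cell cannot be told apart in such bulk samples.

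Core histones H2A, H2B, H3 and H4 form the octamer around which DNA is wound, and linker histone H1 binds where DNA enters and leaves it. Most genes of the histone clusters are replication dependent: they lack introns, are transcribed in S phase, and their mRNAs end just after a conserved stem-loop, bound by the protein SLBP, in place of a poly(A) tail. Some cluster genes can also use a downstream poly(A) signal, and such tailed transcripts are known from differentiated cells that no longer divide, as muscle fibers are. Libraries made by poly(A) selection capture tailed transcripts preferentially, and whether these libraries were selected that way is not given in the sources used here.

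The stem-loop is shown for 6 of the members described below because it marks the usual end of a replication-dependent histone mRNA. It was searched in the GENCODE M21 transcripts (GRCm38) as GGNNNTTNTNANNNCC on the sense strand with all 6 stem pairs complementary. Capitals mark the stem-loop and lower case its 5 flanking bases on each side.
Hist1h1c: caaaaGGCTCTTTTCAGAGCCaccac
Hist1h4i: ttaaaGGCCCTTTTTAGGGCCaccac
Hist1h4h: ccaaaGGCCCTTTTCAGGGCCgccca
Hist3h2a: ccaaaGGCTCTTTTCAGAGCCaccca
Hist2h2aa1: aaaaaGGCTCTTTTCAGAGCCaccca
Hist2h3c1: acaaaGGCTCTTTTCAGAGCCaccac
They lie at chr13:23739507-23739532 (+ strand), chr13:22040961-22040986 (minus strand), chr13:23531453-23531478 (+ strand), chr11:58955167-58955192 (+ strand), chr3:96246027-96246052 (+ strand) and chr3:96247322-96247347 (+ strand), in the order listed. The 16 bases in capitals were identical in the H1, H2A and H3 genes shown, and the 2 H4 genes shared a stem of their own. Hist2h2aa2 and Hist2h3c2 hold the same 26 bases as Hist2h2aa1 and Hist2h3c1. The stem-loop was found in the longest model of 45 of 71 members. Some models without it are no longer than a coding sequence. Hist1h2ai has 393 bases, as many as the coding bases of Hist2h2aa1, and Hist1h2bl has 381. A stem-loop past the end of such a model could not be found by this search, so its absence there is not its absence from the gene. Over all annotated coding genes, 70 of 21951 (0.319%) had one in any model, and 46 of those 70 (65.7%) were histone cluster genes.

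A poly(A) signal (AATAAA or ATTAAA) lay within the last 40 bases of the longest model of 16 members. It is shown for 4 of them, in capitals within a 30-base window near the model's end, because members with a signal, Hist1h1c above all, carried most of the counts.
Hist1h1c: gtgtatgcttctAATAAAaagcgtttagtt
Hist3h2a: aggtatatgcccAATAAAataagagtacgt
Hist2h2be: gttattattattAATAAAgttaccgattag
Hist1h4i: ggttctgtttacATTAAAagtattctatgc
These lie at chr13:23740330-23740359 (+ strand), chr11:58956785-58956814 (+ strand), chr3:96223705-96223734 (+ strand) and chr13:22040639-22040668 (minus strand), in the order listed. In Hist1h1c the model runs on for 840 bases after the stem-loop and in Hist3h2a for 1643, whereas in Hist2h2aa1 it ends 35 bases after it. The 16 members with a signal had 4362 counts in TECRLscko and 5956 in TECRLflox/flox muscle, which is 80.3% and 71.8% of all member counts, at a ratio of 0.873 (0.840 to 0.908). Hist1h1c alone had 3404 of the 4362 and 4642 of the 5956, and without it the other 15 held 958 counts in TECRLscko and 1314 in TECRLflox/flox, which is 47.3% and 36.0% of the counts of the remaining members. The 21 members whose model ends within 100 bases of the stem-loop and has no such signal had 178 counts in TECRLscko and 1025 in TECRLflox/flox, and 817 of the 1025 were those of Hist2h2aa1 alone. The 11 members that run on past the stem-loop without a signal had 180 and 237 counts in TECRLscko and TECRLflox/flox, at 0.906 (0.742 to 1.10). The 23 with neither feature in the model had 711 and 1072 counts in these libraries, at 0.791 (0.718 to 0.870). Hist1h2bc alone had 692 of the 711 and 1017 of the 1072. The short models mentioned above, in which no stem-loop could be found, are among the 23. A signal was present in 8 of the 22 members with at least 10 counts and in 8 of the other 49. The median of the longest M21 models was 1255 bases in the 22 and 485 bases in the 49. The deposited FPKM implies other counted lengths for some members: 744 bases against 7425 for Hist1h1d, 388 against 1679 for Hist1h2bh and 6940 against 2506 for Hist1h2be. Counts of a member that runs on past the stem-loop thus need not include that stretch.

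Few of the clustered genes were measured in this muscle. At least 10 counts over both libraries together were seen for 22 members, 16 of them in Hist1, 5 in Hist2 and 1 in Hist3. Another 24 had 1 to 8 counts in all, and 25 had none in either library. The 49 below 10 counts summed to 33 counts in the TECRLscko and 42 in the TECRLflox/flox library. Among those at 0 were Hist4h4, the sole member of its cluster, and the testis-specific Hist1h1t, Hist1h2aa and Hist1h2ba. The 15 H2A genes of the Hist1 cluster summed to 5 counts in TECRLscko and 6 in TECRLflox/flox muscle, and 9 of them had none. Members at 0 shared more sequence with other genes: a median of 67.6% of their 50-base windows also occur in another gene's model, against 47.6% for the 22 members. How reads shared by several genes were counted is not given in the sources used here, and its part in the low counts was not tested.

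**Figure D1:**
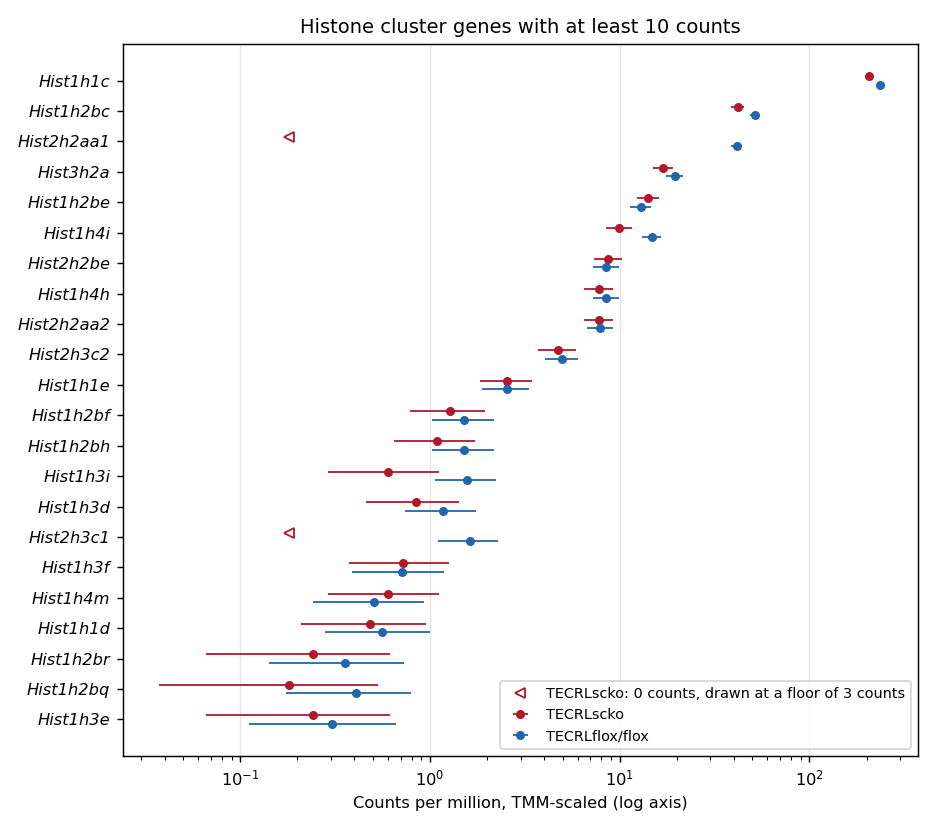
CPM (log axis) of the 22 histone cluster genes with at least 10 counts, in the TECRLscko and the TECRLflox/flox library, with exact 95% Poisson intervals of the counts. The points of most genes lie close together, whereas Hist2h2aa1 and Hist2h3c1 have 0 counts in TECRLscko and are drawn there as open triangles at a floor of 3 counts. CPM is not divided by gene length, so the order of the genes is one of counts.

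H1 genes held 63.6% of the member counts in TECRLscko and 56.7% in TECRLflox/flox muscle, and nearly all of them came from 1 gene. Hist1h1c, which encodes a linker histone of somatic cells, had 3404 counts in TECRLscko and 4642 in TECRLflox/flox. Its deposited FPKM, a level per gene length, was 129 in TECRLscko and 154 in TECRLflox/flox, the highest of any member in both libraries. The ratio was 0.874 (0.836 to 0.914). The linker histone gene Hist1h1e had 42 counts in TECRLscko and 50 in TECRLflox/flox, with 0.648 to 1.54 as the interval of its ratio, and Hist1h1d had 8 and 11 counts in these libraries. Hist1h1a had 2 counts in TECRLscko and 0 in TECRLflox/flox, and Hist1h1b and Hist1h1t had none. Summed, H1 came to 3456 counts in TECRLscko and 4703 in TECRLflox/flox, a ratio of 0.876 (0.838 to 0.916) that Hist1h1c decides: without it the log2 ratio of the sum was 0.023.

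Nearly all H2A counts came from 3 genes, and a large part of those in control muscle from Hist2h2aa1, described with its copy further on. Hist3h2a, the H2A gene of the small Hist3 cluster, had 280 counts in TECRLscko and 384 in TECRLflox/flox, or 7.70 and 9.28 FPKM, and its ratio of 0.869 had an interval that includes 1 (0.743 to 1.02). All 2146 bases of Hist3h2a lie within Trim17, which had 9 counts in TECRLscko and 10 in TECRLflox/flox. Hist2h2aa2 had 128 counts in TECRLscko and 156 in TECRLflox/flox, or 14.3 and 15.3 FPKM, at 0.978 (0.768 to 1.24). All H2A genes together had 415 counts in TECRLscko and 1368 in TECRLflox/flox, a ratio of 0.362 (0.323 to 0.404), and without Hist2h2aa1 the ratio was 0.898 (0.789 to 1.02).

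Among H2B genes, Hist1h2bc was first in level, with 55.5 FPKM in TECRLscko and 71.7 FPKM in TECRLflox/flox. It had 692 counts in TECRLscko and 1017 in TECRLflox/flox, and its ratio of 0.811 had an interval below 1 (0.736 to 0.894). Hist1h2be had 234 counts in TECRLscko and 255 in TECRLflox/flox, at 1.09 (0.912 to 1.31), and Hist2h2be 144 and 168 counts in these libraries, at 1.02 (0.812 to 1.28). The intervals of both include 1. Hist1h2bf had 21 counts in TECRLscko and 30 in TECRLflox/flox, and Hist1h2bh 18 and 30. The near-identical Hist1h2bq and Hist1h2br, with 3 and 4 counts in TECRLscko and 8 and 7 in TECRLflox/flox, summed to 7 and 15 counts at 0.556 (0.192 to 1.45). Summed over the type, H2B had 1124 counts in TECRLscko and 1525 in TECRLflox/flox, at 0.879 (0.813 to 0.950), and without Hist1h2bc the log2 ratio of the sum was 0.020.

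H3 genes were sparse. Hist2h3c2 led them with 78 counts in TECRLscko and 98 in TECRLflox/flox, or 4.51 and 4.98 FPKM, at a ratio of 0.949 (0.696 to 1.29). Hist1h3i had 10 counts in TECRLscko and 31 in TECRLflox/flox, at 0.385 (0.168 to 0.805), and its sum with the near-identical Hist1h3h is the same, since that copy had no count. Hist1h3d had 14 counts in TECRLscko and 23 in TECRLflox/flox, Hist1h3f 12 and 14, and Hist1h3e 4 and 6, each with an interval that includes 1. Summed over the type, H3 had 123 counts in TECRLscko and 210 in TECRLflox/flox, at 0.698 (0.554 to 0.877). Without Hist2h3c1 the interval included 1, at 0.824 (0.649 to 1.04).

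H4 rested largely on 2 genes, both in Hist1. Hist1h4i had 164 counts in TECRLscko and 291 in TECRLflox/flox, or 13.3 and 20.8 FPKM, and its ratio of 0.672 (0.551 to 0.816) was the lowest among members with over 100 counts in both libraries. Hist1h4h had 128 counts in TECRLscko and 168 in TECRLflox/flox, or 16.0 and 18.4 FPKM, at 0.908 (0.716 to 1.15). The order of the 2 H4 genes by FPKM thus differed between the libraries, with Hist1h4h above Hist1h4i in TECRLscko and below it in TECRLflox/flox. These FPKM values carry no interval for counting error, and the order was not tested in either library. Hist1h4m had 10 counts in each library and summed with its near-identical copy Hist1h4n to 14 in TECRLscko and 13 in TECRLflox/flox. Over all H4 genes the counts were 313 in TECRLscko and 484 in TECRLflox/flox, at 0.771 (0.667 to 0.891). Without Hist1h4i the log2 ratio of the H4 sum was -0.12.

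**Figure D2:**
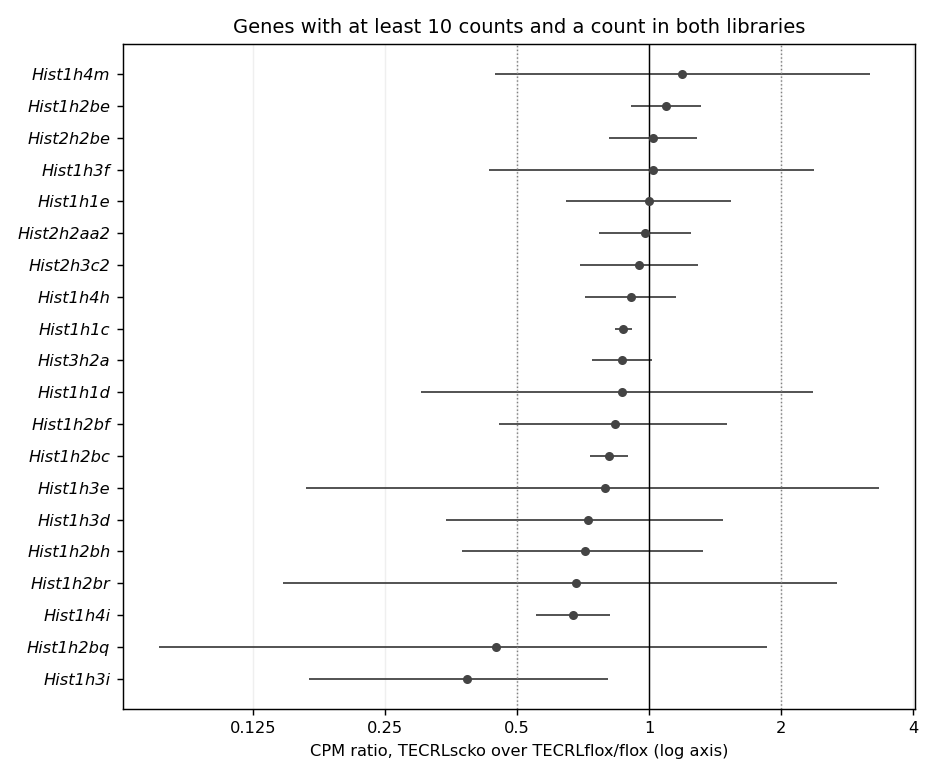
CPM ratio, TECRLscko over TECRLflox/flox (log axis), with exact 95% intervals for counting error, of the 20 genes with at least 10 counts in all and a count in each library. The solid line marks equal CPM and the dotted lines a 2-fold difference. Hist1h1c, Hist1h2bc, Hist1h4i and Hist1h3i have intervals wholly below 1 and none of the 20 has one wholly above it. Of the 12559 genes averaging 1 CPM or more, 23.8% had such an interval below 1 and 24.1% one above it. The 20 were chosen by another rule, under which the share over all genes was not computed.

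Hist2h2aa1 and Hist2h3c1 differed from all of these. Hist2h2aa1, an H2A gene at chr3:96245497-96246082 on the + strand in the deposited coordinates (GRCm38), had 0 counts in TECRLscko and 817 in TECRLflox/flox, or 0 and 72.3 FPKM. The exact interval of its ratio runs from 0 to 0.00540. In TECRLflox/flox its FPKM was next to that of Hist1h1c and on a level with Hist1h2bc. Its log2 ratio with 0.5 CPM added, -6.39, was the lowest of the 12559 genes whose mean reached 1 CPM. Hist2h3c1, an H3 gene at chr3:96246685-96248504 on the + strand, had 0 counts in TECRLscko and 32 in TECRLflox/flox, and the interval of its ratio runs from 0 to 0.146.

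Both genes stand in 1 arm of a duplicated stretch of the Hist2 cluster. The other arm holds their copies in the opposite orientation, Hist2h3c2 at chr3:96238108-96239127 and Hist2h2aa2 at chr3:96239749-96240276, both on the minus strand. The 528-base model of Hist2h2aa2 is identical to bases 59 to 586 of the 586-base model of Hist2h2aa1, and the first 666 bases of the Hist2h3c2 model to bases 16 to 681 of that of Hist2h3c1. Every 50-base window of Hist2h2aa1, Hist2h2aa2 and Hist2h3c1 (100%) and 63.5% of those of Hist2h3c2 also occur in another gene's model. These shares include non-histone models at the same place and so do not measure likeness between the arms. Gm20633 covers all 586 bases of Hist2h2aa1, Gm20632 all 528 of Hist2h2aa2 and Gm20634 all 1820 of Hist2h3c1 in the deposited coordinates. The 393 coding bases of Hist2h2aa1 are those of Hist2h2aa2 letter for letter, so a read from within them names neither gene. The first 300, at chr3:96245581-96245880 (+ strand), are printed once for both, with the start codon in capitals.
Hist2h2aa1: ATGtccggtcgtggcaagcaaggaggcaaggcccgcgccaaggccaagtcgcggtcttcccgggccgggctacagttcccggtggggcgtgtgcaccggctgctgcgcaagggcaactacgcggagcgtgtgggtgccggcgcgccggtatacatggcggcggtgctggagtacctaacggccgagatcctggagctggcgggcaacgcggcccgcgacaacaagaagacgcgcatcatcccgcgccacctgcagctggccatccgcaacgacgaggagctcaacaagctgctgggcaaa

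The 2 arms gave different ratios. The arm with Hist2h2aa2, Hist2h3c2 and Gm20632, a model on the other strand, had 224 counts in TECRLscko and 271 in TECRLflox/flox, at 0.986 (0.822 to 1.18). The arm with Hist2h2aa1, Hist2h3c1, Gm20633 and Gm20634 had 111 counts in TECRLscko and 979 in TECRLflox/flox, at 0.135 (0.110 to 0.165). Within that second arm, Gm20634 runs on the same strand over 529 bases of Hist2h2aa1 and all 1820 of Hist2h3c1, and it had 106 counts in TECRLscko and 125 in TECRLflox/flox, at 1.01 (0.773 to 1.32). Gm20633, on the opposite strand over all 586 bases of Hist2h2aa1, had 5 counts in each library. The 5 other models of the stretch thus had ratios from 0.949 to 1.26, each with an interval that includes 1, beside the 2 that had no count in TECRLscko.

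**Figure D3:**
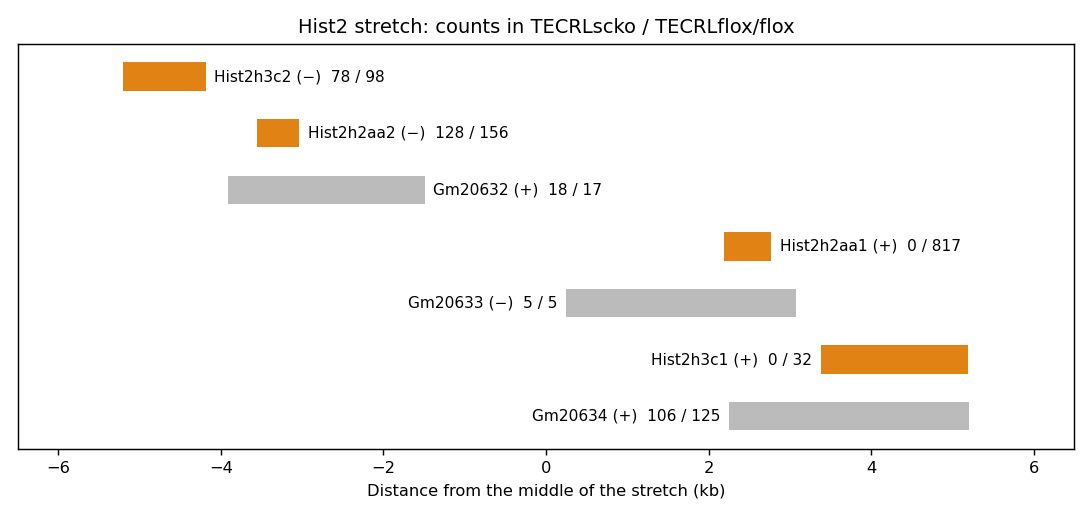
Map of the duplicated stretch of the Hist2 cluster, in kb from its middle, with histone genes in orange and overlapping non-histone models in gray, and each model's strand and its counts in TECRLscko / TECRLflox/flox. Hist2h2aa1 has 0 / 817 and Hist2h3c1 0 / 32 counts, while Gm20634, which overlaps both, has 106 / 125 and the copies in the other arm 128 / 156 and 78 / 98.

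Summing the copies did not bring the libraries together. Hist2h2aa1 and Hist2h2aa2 had 128 counts in TECRLscko and 973 in TECRLflox/flox, a ratio of 0.157 (0.129 to 0.189). Hist2h3c1 and Hist2h3c2 had 78 and 130 counts in TECRLscko and TECRLflox/flox, at 0.715 (0.533 to 0.954). All 7 models of the stretch had 335 counts in TECRLscko and 1250 in TECRLflox/flox, at 0.320 (0.282 to 0.361). Reads of identical copies cannot be assigned with certainty, and no source used here names the counter or its rule for such reads, so their part in the zeros was not tested. Of 11913 genes with at least 30 counts in TECRLflox/flox, a limit chosen after the values were seen, Hist2h2aa1 and Hist2h3c1 were the 2 with 0 in TECRLscko (0.0168%). In the other direction, 2 of 11761 genes with at least 30 counts in TECRLscko had 0 in TECRLflox/flox (0.017%), Gm20716 with 311 and Gm21985 with 67 counts. Both of these overlap another counted model, as Hist2h2aa1 and Hist2h3c1 do. So do Hist2h2aa2 and Hist3h2a, which had counts in both libraries. The share of all genes with such an overlap was not computed. At limits of 10 and 20 counts, 9 genes (0.0665%) and 3 genes (0.024%) had 0 in TECRLscko. The same 2 members are among them by construction, since they pass the limit of 30. With the libraries exchanged, 12 genes (0.0898%) and 4 genes (0.0324%) had 0 in TECRLflox/flox, and 0 members were among them.

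The promoters of the H2A pair are shown because the copies are alike there too. RefSeq windows (GRCm38.p6) from 250 bases before to 50 after the annotated start share an exact run of 219 bases, bases 42 to 260 of the Hist2h2aa1 and 82 to 300 of the Hist2h2aa2 window. They lie at chr3:96245247-96245546 (+ strand) and chr3:96240325-96240624 (minus strand). Capitals mark CCAAT on either strand (ATTGG on the other) and TATAAA.
Hist2h2aa1: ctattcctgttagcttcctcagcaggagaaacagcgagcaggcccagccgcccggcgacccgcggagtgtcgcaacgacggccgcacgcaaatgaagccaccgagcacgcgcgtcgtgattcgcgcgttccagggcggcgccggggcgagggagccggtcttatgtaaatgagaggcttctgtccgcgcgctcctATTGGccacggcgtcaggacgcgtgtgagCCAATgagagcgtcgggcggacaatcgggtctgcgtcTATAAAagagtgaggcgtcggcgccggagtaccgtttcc
Hist2h2aa2: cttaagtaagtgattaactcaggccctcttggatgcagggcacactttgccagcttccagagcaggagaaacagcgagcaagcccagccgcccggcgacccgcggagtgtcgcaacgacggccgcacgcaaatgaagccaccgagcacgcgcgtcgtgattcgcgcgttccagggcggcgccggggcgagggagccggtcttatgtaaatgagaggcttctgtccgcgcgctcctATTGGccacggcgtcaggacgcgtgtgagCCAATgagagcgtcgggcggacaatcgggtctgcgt
The Hist2h2aa1 window holds TATAAA, after its annotated start. The Hist2h2aa2 window, whose RefSeq start lies further upstream in the shared sequence, ends before those letters. In the M21 models the order is the reverse, with Hist2h2aa2 starting at base 59 of the Hist2h2aa1 model. Whether the copies differ in TATAAA cannot be read from these windows, since they rest on different annotated starts. Of 70 member symbols 69 matched RefSeq and 61 genes had a window, 62 in all. TATAAA, searched on both strands as were the next 2 motifs, was found in 56.5% of the 62 windows and in 13.6% of 32851 windows of all genes. CCAAT was found in 85.5% of member windows, against 37.4% of all windows, and in 3 of the 12 windows (25%) of H4 genes, against 100% of those of H1, H2A, H2B and H3 genes. The octamer ATTTGCAT was found in 22.6% of member windows and 1.74% of all windows, and within the members in 41.2% each of H2A and H2B windows and in 0 H1, H3 or H4 windows.

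By cluster, Hist2 stood apart through those genes. Hist1 had 4795 counts in TECRLscko and 6618 in TECRLflox/flox, a ratio of 0.864 (0.832 to 0.897). Hist2 had 354 counts in TECRLscko and 1281 in TECRLflox/flox, at 0.329 (0.292 to 0.371). Without Hist2h2aa1, the TECRLflox/flox sum of Hist2 was 464 and the ratio 0.910 (0.790 to 1.05), and without Hist2h3c1 as well it was 0.977 (0.847 to 1.13). Hist3 had 282 counts in TECRLscko and 391 in TECRLflox/flox, at 0.860 with an interval that includes 1, and 280 and 384 of these were from Hist3h2a.

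**Figure D4:**
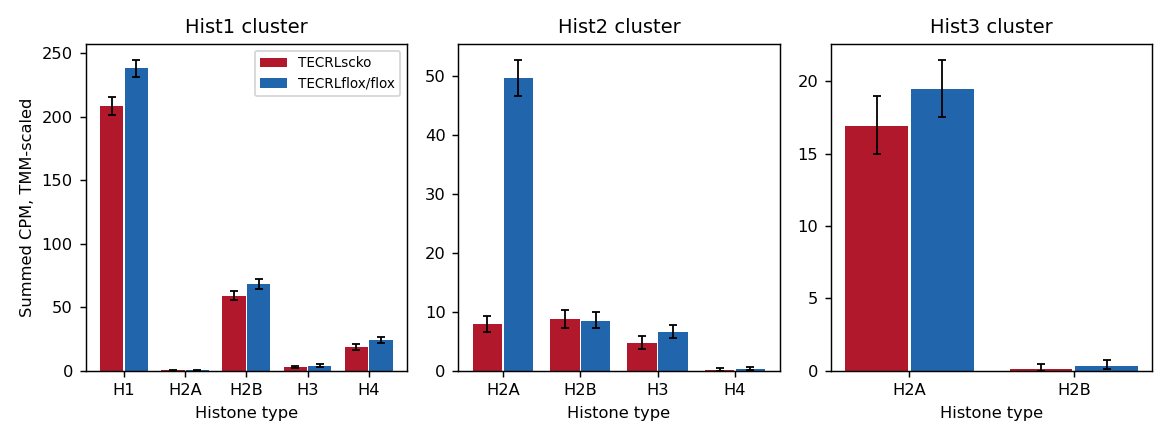
Summed CPM of the histone cluster genes by cluster (panels, each with its own axis from 0) and histone type, in TECRLscko and TECRLflox/flox, with exact 95% Poisson intervals of the summed counts. Hist2 H2A shows the widest gap, 7.85 CPM in TECRLscko and 49.6 CPM in TECRLflox/flox. Every other pair of bars differs by fewer CPM, and Hist1 H2A is near 0 in both.

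Over all 71 members, the counts were 5431 in TECRLscko and 8290 in TECRLflox/flox, or 0.0320% and 0.0430% of each library. The summed CPM was 328 in TECRLscko and 420.0 in TECRLflox/flox, a ratio of 0.781 (0.755 to 0.808). Hist1h1c and Hist1h2bc together made up 75.4% of the member counts in TECRLscko and 68.3% in TECRLflox/flox. Leaving out Hist2h2aa1 brought the ratio to 0.866 (0.837 to 0.897), and leaving out Hist2h3c1 as well to 0.870 (0.840 to 0.901). Hist2h2aa1 alone had 0 CPM in TECRLscko and 41.4 CPM in TECRLflox/flox.

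A mean of at least 1 CPM was reached by 15 members. By a 2-fold rule on the log2 ratio, 1 of the 15, Hist2h2aa1, was lower in TECRLscko, where 0.796% of all 12559 genes were, and 0 were higher, where 2.28% were. By a 1.5-fold rule Hist1h3i was added, 2 of 15 lower against a background of 3.88% and 0 higher against 9.24%. The log2 ratio was below 0 in 12 of the 15, against 51.8% of all genes, and their median was -0.19, against -0.02 over all genes. The counting interval lay below 1 for 5 of the 15, against 23.8% of all genes, and above 1 for 0, against 24.1%. Hist2h3c1, whose mean was below 1 CPM, is not among the 15. Log2 ratios varied with transcript length over all genes in these libraries. In the tenth of genes with the shortest transcripts, up to 1374 bases, the median log2 ratio over all genes was -0.17, and in the tenth with the longest it was 0.33. Log2 ratios varied with GC content too. The median was 0.36 in the tenth of genes with the lowest GC content and -0.17 in the tenth with the highest. The median transcript was 1088 bases long in the 14 of these members that M21 lists by identifier and 3422 over all genes. Median GC content was 53.9% in the 14 and 49.8% over all genes. Hist1h2bh, matched by symbol, was left out of these medians and of the correction that follows. Both rest on the longest M21 model, which for some members is not the length counted. For Hist1h2bc it is 1156 bases, where the deposited FPKM implies 736. After the log2 ratios were corrected for transcript length and GC content by lowess, a step added after the values had been seen, the member median was 0.036 and 6 of 14 were below 0, against -0.02 and 52.5% over all genes. The corrected values were shifted to keep the uncorrected median over all genes, so the -0.02 was set by the correction and the 52.5% largely follows from it. Hist1h4i then had a log2 ratio of -0.34, Hist1h3i of -0.69, Hist1h2bc of -0.20 and Hist1h1c of 0.06, and Hist2h2aa1 of -6.14.

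The histone genes outside the clusters, most of which are replication independent and give tailed mRNAs, also had mostly small differences. Of 19 such genes listed, 11 passed 1 CPM, 8 of them with a log2 ratio below 0 and with a median of -0.14, and 0 passed the 1.5-fold rule in either direction. Their summed ratio was 0.911 (0.882 to 0.940), beside 0.866 (0.837 to 0.897) for the cluster genes without Hist2h2aa1. H1f0, the linker histone of resting cells, had 2074 counts in TECRLscko and 2805 in TECRLflox/flox, at 0.882 (0.833 to 0.933), near the ratio of Hist1h1c. H3f3a, which encodes the replacement histone H3.3, had 1379 counts in TECRLscko and 1847 in TECRLflox/flox, at 0.890 (0.830 to 0.955). H2afx, the H2A variant phosphorylated at DNA breaks, had 93 counts in TECRLscko and 147 in TECRLflox/flox, at 0.754 (0.575 to 0.985).

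**Figure D5:**
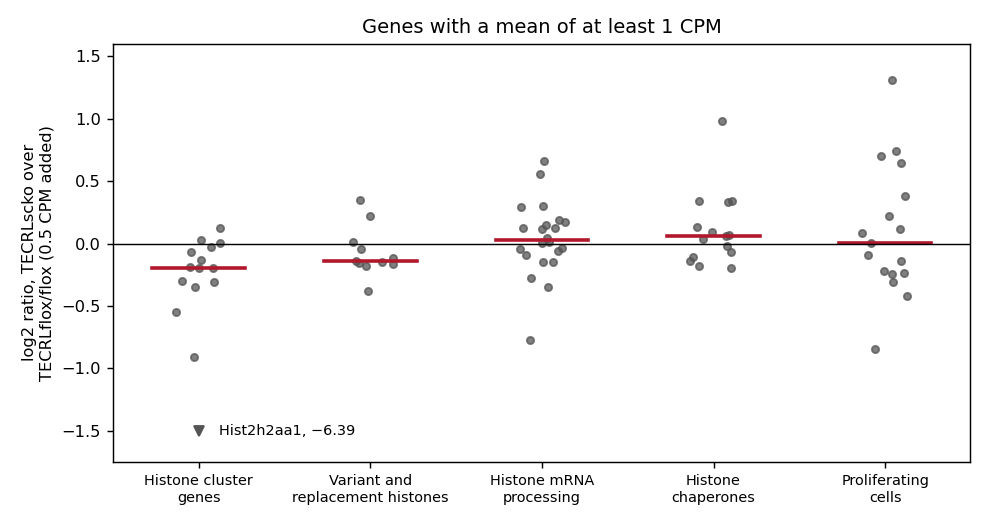
log2 ratio, TECRLscko over TECRLflox/flox with 0.5 CPM added, of genes averaging 1 CPM or more in 5 lists, with each list's median as a red bar. No value is corrected for transcript length or GC content. The histone cluster genes have a median of -0.19 and the variant and replacement histones of -0.14, and the other 3 lists lie at 0.03, 0.06 and 0.00; Hist2h2aa1, at -6.39, is drawn as a triangle at the lower edge.

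Genes whose products transcribe, process or carry histones had medians near 0. Of 23 genes listed for histone mRNA transcription and 3′ end processing, 22 passed 1 CPM with a median log2 ratio of 0.03, and 1 was at least 1.5-fold lower and 1 at least 1.5-fold higher. Lsm10, a subunit of the U7 particle that cuts histone pre-mRNA, was the lower, with 47 counts in TECRLscko and 103 in TECRLflox/flox, at 0.544 (0.377 to 0.775). Casp8ap2, a protein of the nuclear bodies at the histone genes, was the higher, with 91 counts in TECRLscko and 65 in TECRLflox/flox, at 1.67 (1.20 to 2.33). Slbp, which encodes the stem-loop binding protein and is named here for that role after its values were seen, had 149 counts in TECRLscko and 143 in TECRLflox/flox, at 1.24 (0.981 to 1.57). Of 17 histone chaperones, 15 passed 1 CPM with a median of 0.06. Atrx, which deposits H3.3 together with Daxx, was the 1 of them past 1.5-fold, with 575 counts in TECRLscko and 342 in TECRLflox/flox, a log2 ratio of 0.98 with 1.75 to 2.30 as the interval of the plain ratio. The values given for genes outside the clusters, here and for the other lists, are not corrected for transcript length or GC content. Since log2 ratios varied with length and with GC content over all genes, part of these differences may follow those trends, which was not tested.

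Markers of dividing cells stand beside the members because cluster genes are transcribed in S phase. Of 26 such markers 17 passed 1 CPM with a median log2 ratio of 0.00, and their summed CPM was 124 in TECRLscko and 127 in TECRLflox/flox. At least 1.5-fold higher in TECRLscko were 4 of the 17, among them Mki67 with 31 counts in TECRLscko and 9 in TECRLflox/flox, at 4.11 (1.91 to 9.81), and 1 was lower, E2f1 with 21 counts in TECRLscko and 53 in TECRLflox/flox, at 0.472 (0.271 to 0.797). Over all genes 9.24% were at least 1.5-fold higher and 3.88% lower. Of the other cell types, satellite cell markers summed to 124 CPM in TECRLscko and 149.8 in TECRLflox/flox, with 10 of 10 detected, and leukocyte markers to 162 and 208, with 9 of 9 detected. Single markers went the other way, among them Pax7 with a ratio of 1.56 (1.10 to 2.24) and the leukocyte gene Ptprc with 1.65 (1.07 to 2.56), both named after their values were seen. The 4 adipocyte markers summed to 17.6 CPM in TECRLscko and 37.7 in TECRLflox/flox, and the 3 tenocyte markers to 78.4 and 50.9. Their part in the member values was not tested. As a group of transcripts without a poly(A) tail, 12 RNAs such as Rmrp and Terc were listed, of which 5 are in the table, and these had 0 counts in TECRLscko and 1 in TECRLflox/flox in all.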

How the data were processed

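Total RNA of gastrocnemius muscle was sequenced as 1 TECRLscko and 1 TECRLflox/flox library. Per the labels' protocols, libraries were built with a commercial Illumina RNA-seq kit. HISAT2 2.0.4, StringTie 1.3.0, CASAVA and the build GRCm38 are named, per the submitters' processing notes, without a role. How RNA was selected, the counter and its strand setting, and the release of the annotation are not stated in the sources used here. Per the file headers, the deposited table holds a raw count and an FPKM value per gene and library. The deposited counts are whole numbers that sum to 16946124 in the TECRLscko and 19281017 in the TECRLflox/flox library.

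The 71 members were chosen by symbol. Members and gene lists were chosen with earlier results of these data known. Counts were scaled to CPM with TMM factors from edgeR 4.0.16 (R 4.3.3), 0.977 for TECRLscko and 1.02 for TECRLflox/flox. Ratios have exact 95% Clopper-Pearson intervals, conditional on the total of both libraries, and counts have exact Poisson intervals (scipy 1.17.1). With 1 library in each group, these intervals and the floor of 3 counts cover counting error at most. Since reads carry no molecular identifier, copies of 1 molecule may be counted more than once, and the intervals may be too narrow. Log2 ratios of genes add 0.5 CPM, which understates the difference of low genes, and the 2-fold rule was applied where the mean reached 1 CPM. No test was made, since 1 library stands for each group. The ratio and interval code was tested on simulated data.

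Every member with at least 10 counts in all is named. From the other lists at most 4 genes are named, those highest in CPM or in absolute log2 ratio, with exceptions stated. Transcript models are those of GENCODE M21, which lists 69 of the members by identifier and 2 by symbol, 48 of the 71 at the deposited coordinates. Near-identical copies share cluster and type and align at 98% identity over at least 90% of the longer model (blastn 2.17.0). They were sought among transcripts and not in the genome, and Hist2h3c1 and Hist2h3c2 were joined through an exact run of at least 400 bases, a criterion added after seeing the alignments. Alternatives were DESeq2 1.42.0 size factors, total counts, deposited FPKM, other pseudocounts and filters, and sums without 1 member or with overlapping models. Correction for length and GC content (lowess, span 0.3, statsmodels 0.14.6) was added after seeing the data.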

Additional observations from a re-analysis of the deposited data

How the results depend on the processing

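No paired analysis was possible because there is 1 library for each genotype, and for the same reason no replicate could be left out. DESeq2 size factors kept every sum within its counting interval, and so did a library size without mitochondrial and hemoglobin genes. With total counts the log2 ratio of the sum of all members moved to -0.42 (main value -0.36), of Hist1 to -0.28 (-0.21) and of H1 to -0.26 (-0.19). With deposited FPKM these were -0.59, -0.31 and -0.25, and those of Hist2, H2A and H2B were -2.12 (-1.60), -2.10 (-1.47) and -0.35 (-0.19). Without the member that differed most in CPM, the values were -0.21 for all members, -0.14 for Hist2, -1.55 for Hist3 on 2 counts against 7, 0.023 for H1, -0.16 for H2A, 0.020 for H2B and -0.12 for H4. Adding overlapping models moved Hist2 to -1.31. In the main setting 1 of 15 members was at least 2-fold lower. With deposited FPKM it was 2 of 16, and with a pseudocount of 0.1 CPM 2 of 15. Without mitochondrial and hemoglobin genes it was 2 of 16, and without a filter 2 of 46. The share over all genes was not computed under these alternatives. By a 1.5-fold rule 2 of 15 were lower, where 3.88% of all genes were, and 0 were higher, where 9.24% were. Members at least 2-fold higher were 0 under each alternative run. The median log2 ratio of members past the filter, -0.19, was 0.036 after correction for length and GC content, and it stayed within 0.1 of the main value under the other alternatives. Of 146 values of single members under alternatives, 132 stayed within their counting interval, and 8 members changed sign in at least 1 alternative, Hist1h1c, Hist2h2aa2, Hist1h4h, Hist1h2bf and Hist2h3c2 under the length and GC correction and Hist1h1e, Hist1h3f and Hist2h2be with total counts and deposited FPKM. Hist2h2aa1 had a log2 ratio of -8.70 with a pseudocount of 0.1 CPM and -5.41 with 1 CPM, since its count in TECRLscko is 0. The 24 members with 1 to 8 counts in all are too sparse for a difference to be detectable at this depth.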
